A study of Homo sapiens with 18 samples.

Results

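The genes described here are the 9 MHC class I antigen presentation genes HLA-B, HLA-C, HLA-E, B2M, TAP1, TAP2, TAPBP, PSMB8 and PSMB9, taken by name from the 61487 gene IDs counted in each library. All 9 had a gene ID in all 18 libraries, though TAP2 had a count of 0 in some of them. They were examined in NCI-H1975, an established human lung adenocarcinoma cell line, as poly(A)-selected mRNA and as ribosome footprints, the stretches of mRNA that ribosomes protect from nuclease digestion. The study used ribosome profiling to look for translated lncRNAs and then to ask which mRNAs respond, in amount or in translation, to loss of the peptide DAMP.

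There were 6 groups of 3 libraries. The sgDAMP cells carried a knockout of DAMP by their labels, though their deposited files are named sgTIAMP, the Scramble cells received a scrambled control and the sgControl cells a control guide, each as mRNA and as footprints. All cells were NCI-H1975, and cells for footprints were harvested after 100 µg/ml cycloheximide, which holds ribosomes on mRNA. The labels give neither the delivery of the guides nor the number of clones, and do not say whether the replicates were separate cultures, so p-values measure only the spread between these libraries, which may be technical. In such bulk samples, fewer cells with a transcript and less of it per cell cannot be told apart.

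MHC class I molecules show fragments of the cell's own proteins at the surface, where CD8 T cells and natural killer cells read them. Proteins are cut by the proteasome, whose catalytic subunits PSMB5, PSMB6 and PSMB7 can be replaced by the immunoproteasome subunits PSMB8, PSMB9 and PSMB10, and the peptides are carried into the endoplasmic reticulum by the transporter TAP1-TAP2. There tapasin (TAPBP) helps to load them onto a heavy chain (HLA-B, HLA-C or HLA-E) held with the light chain beta-2-microglobulin (B2M). Interferon gamma raises most of these genes, and tumours often lose some of them.

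All but one of the members lie in the MHC on chromosome 6. In the RefSeq annotation of GRCh38.p14, HLA-E spans 30489509 to 30494194, HLA-C 31268749 to 31272092 and HLA-B 31353875 to 31357179. Further along, TAP2 spans 32821831 to 32838739, PSMB8 32840717 to 32844679, TAP1 32845209 to 32853704, PSMB9 32854192 to 32859851 and TAPBP 33299694 to 33314078. B2M lies apart on chromosome 15, from 44711517 to 44718145. The starts of TAP1 and PSMB9 are 488 bases apart and face away from each other. The lncRNA gene PSMB8-AS1 overlaps PSMB8 by 594 bases and TAP1 by 1292 bases, RGL2 overlaps TAPBP by 1919 bases, and the miRNA gene MIR6891 lies inside HLA-B. Where strand was not used, reads in these overlaps may be left out as ambiguous between genes or mixed between the partners. MIR6891 was at 0 in every library.

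Promoter windows of 300 bases, from 250 before to 50 after the start, were given by RefSeq for 8 of the 9 members (10 windows, with 2 each for PSMB8 and TAP1). Interferon regulatory factors bind pairs of the tetramer GAAA that stand 2 bases apart. This pair, with any base in the gap and read on both strands, stood in 1 window each of 5 of the 8 members (TAP1, TAP2, TAPBP, PSMB8 and B2M). That is 5 of the 10 windows, against 3.57% of all 35116 windows. In PSMB8 the window of the outermost start had 0 matches and that of a start inside the gene had 1. A match of letters is not a measured site, and no match in HLA-B, HLA-C and PSMB9 says only that these letters are not in the window. The stretches of TAP1, TAP2 and B2M are shown because the peptide transporter and the light chain carry the pair upstream of the start, in TAP1 and B2M as an overlapping run of 2 pairs. Each is read 5′ to 3′ on the gene's own strand of GRCh38.p14, with the matched bases in capitals, which appear as the reverse complement in TAP1. The stretches of PSMB8 and TAPBP, with their flanks, reach past the start and are not shown. TAPBP also had an overlapping run of 2 pairs, with its first base 20 bases before the start.
TAP1, chr6:32853803-32853858, minus strand: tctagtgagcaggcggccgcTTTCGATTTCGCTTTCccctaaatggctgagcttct
TAP2, chr6:32838768-32838817, minus strand: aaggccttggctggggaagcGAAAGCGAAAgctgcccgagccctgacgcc
B2M, chr15:44711353-44711408, plus strand: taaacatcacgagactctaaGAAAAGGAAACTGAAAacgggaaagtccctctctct

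Levels are given as coding CPM, the CPM of a gene relative to all counts on protein-coding genes in the same library. Gene counts ran from 17171514 to 17455799 in sgDAMP mRNA, from 10859527 to 12424884 in Scramble mRNA and from 17098397 to 17464782 in sgControl mRNA. Coding footprints ran from 4737014 to 5248392 in sgDAMP, from 82970 to 238698 in Scramble and from 5429389 to 6196985 in sgControl libraries, so a member with few reads is measured least well in Scramble footprints. The Scramble libraries also stood apart in how reads were assigned: 42.5% to 43.2% of mRNA reads fell in no gene, against 1.15% to 1.43% in sgControl, and 3.13% to 3.21% were ambiguous between genes, against 13.7% to 14.3%. The 3 footprint libraries of sgDAMP, and likewise those of sgControl, differed by no more than sampling noise, with a mean chi-square per degree of freedom of 0.910 and 0.909 over the lowest 99% of genes and 13 and 46 single genes beyond that noise, and were counted as 1 sample each. DSP-AS1, the lncRNA gene from which DAMP is read, had 0, 1 and 1 footprints in sgDAMP libraries and 175, 176 and 216 in sgControl libraries, with 319 to 336 mRNA counts in sgDAMP and 299 to 328 in sgControl. The 8 epithelial markers did not move as one. In mRNA, pooled over libraries, KRT7 had 3545 coding CPM in sgDAMP, 2050 in Scramble and 5807 in sgControl cells, whereas CDH1 had 45.6, 127 and 28.5 in that order, and EPCAM (0 to 15 counts), KRT19 (2 to 18) and NKX2-1 (0 to 3) were near 0 in all 9 mRNA libraries. Their summed footprints ran from 9597 to 9644 coding CPM in sgDAMP, from 4303 to 6065 in Scramble and from 16201 to 17913 in sgControl libraries. The lower sum in sgDAMP came from EGFR, with 612 coding CPM in sgDAMP and 9455 in sgControl footprints (68.5 in both in mRNA). In coding CPM, KRT7 (6551 in sgDAMP and 5550 in sgControl), KRT18 (2020 and 1732), KRT8 (285 and 179) and CDH1 (132 and 100.1) were higher in sgDAMP. With the TMM scaling used for the footprint ratios below, KRT7 (0.980) and KRT18 (0.968) were slightly lower in sgDAMP. KRT8 (1.32) and CDH1 (1.09) stayed higher. Of 8 leukocyte markers, 7 had no footprint in sgDAMP, 6 in Scramble and 7 in sgControl libraries, PTPRC and CD3E among them, and CD14 had 12 footprints in sgDAMP, 38 in Scramble and 0 in sgControl. The leukocyte sum ran from 0.422 to 1.15 coding CPM in sgDAMP, from 62.8 to 108 in Scramble and from 0 to 0.184 in sgControl footprints. The part of these markers in the results was not tested.

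**Figure D1:**
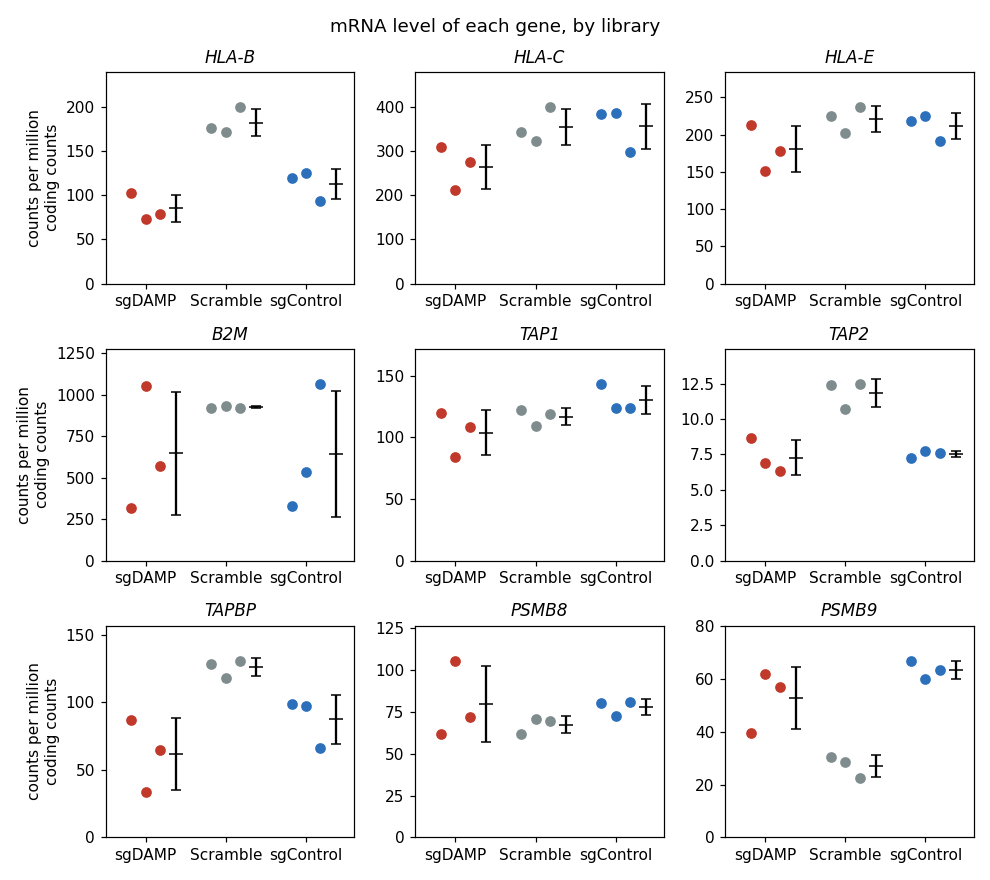
Level of each gene in mRNA, in coding CPM, for the 3 libraries of sgDAMP, Scramble and sgControl cells; bars give the mean and SD of each group. B2M ran from 319 to 1049 in sgDAMP and from 327 to 1063 in sgControl libraries but only from 918 to 931 in Scramble libraries, and PSMB9 was lowest in Scramble libraries.

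In mRNA, loss of DAMP was compared with the control guide in 3 libraries each. All 9 members had a negative log2 change under TMM scaling, of which B2M and PSMB8 turned positive under total-count and upper-quartile scaling, and none passed the test. edgeR's quasi-likelihood test called 0 of 14032 genes at an adjusted p under 0.05, a background of 0% higher and 0% lower, with 741 genes at an unadjusted p under 0.05, 21 genes called by DESeq2 and 0 by limma-voom. The members' median log2 change was -0.40, beside 0.03 over all genes tested, a median that total-count scaling moved to 0.17 and upper-quartile scaling to 0.13.

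Among the heavy chains, which hold the peptide, HLA-B had 103, 73.4 and 78.6 coding CPM in sgDAMP libraries, against 120, 125 and 93.5 coding CPM in sgControl libraries. The groups overlapped, since sgDAMP replicate 1 lay above sgControl replicate 3. The log2 change of HLA-B was -0.57 (SE 0.27, adjusted p = 0.862 by edgeR). HLA-C, another classical heavy chain, had 308, 211 and 274 coding CPM in sgDAMP libraries, against 385, 385 and 297 coding CPM in sgControl libraries. Its log2 change was -0.59 (SE 0.28, adjusted p = 0.862), again with 1 sgControl library below the highest sgDAMP library. HLA-E, a non-classical heavy chain read by natural killer cells, averaged 181 ± 31.2 coding CPM in sgDAMP and 211 ± 17.7 coding CPM in sgControl libraries (SD, n = 3 each), a log2 change of -0.38 (SE 0.26).

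B2M, the light chain that all heavy chains need, had 319, 1049 and 569 coding CPM in sgDAMP libraries, against 327, 533 and 1063 coding CPM in sgControl libraries. The libraries of each group thus spread over 3.29-fold in sgDAMP and 3.26-fold in sgControl, and the log2 change of -0.08 (SE 0.45) lies well within that spread. This change turned positive when sgDAMP replicate 1 or sgControl replicate 3 was left out, at 0.26 and 0.38.

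Of the transporter and its partner, TAP1 had 119, 84.3 and 108 coding CPM in sgDAMP libraries, against 143, 124 and 124 coding CPM in sgControl libraries. TAP1 was the only member whose groups did not overlap, in a background where 2.99% of genes were lower and 8.15% higher without overlap, and 1 of 9 members is read against that share. Its log2 change was -0.48 (SE 0.26, unadjusted p = 0.0901, adjusted p = 0.862 by edgeR). TAP2, the other chain of the transporter, had 7.28 ± 1.21 coding CPM in sgDAMP and 7.54 ± 0.237 coding CPM in sgControl libraries (SD, n = 3 each). TAPBP had 86.6, 33.9 and 64.7 coding CPM in sgDAMP libraries, against 98.8, 97.1 and 66.5 coding CPM in sgControl libraries. It had the most negative log2 change of the 9, -0.68 (SE 0.34, adjusted p = 0.862), which was -0.39 without sgDAMP replicate 2.

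Of the immunoproteasome subunits, PSMB8 had 61.9, 105 and 71.8 coding CPM in sgDAMP libraries, against 80.3, 72.6 and 80.9 coding CPM in sgControl libraries. Its log2 change was -0.11 (SE 0.28), turning to 0.02 under total-count scaling and 0.07 without sgDAMP replicate 1. PSMB9 had 39.5, 61.8 and 57.1 coding CPM in sgDAMP libraries, against 66.8, 59.8 and 63.6 coding CPM in sgControl libraries. The groups overlapped by 1 library and the log2 change was -0.40 (SE 0.28, adjusted p = 0.862). The constitutive subunits that they replace had log2 changes of -0.01 (PSMB5), -0.10 (PSMB6) and 0.09 (PSMB7). The count of PSMB9 per count of PSMB6, the subunit it replaces, averaged 0.129 ± 0.00902 in sgDAMP and 0.160 ± 0.00460 in sgControl libraries (SD, n = 3 each). The 3 sgDAMP ratios all lay below the 3 sgControl ratios, and the exact permutation test gave a two-sided p of 0.1, the smallest that 3 against 3 allow. For PSMB8 per PSMB5 the means were 0.138 ± 0.0258 in sgDAMP and 0.149 ± 0.00622 in sgControl libraries (two-sided exact permutation p = 0.5).

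**Figure D2:**
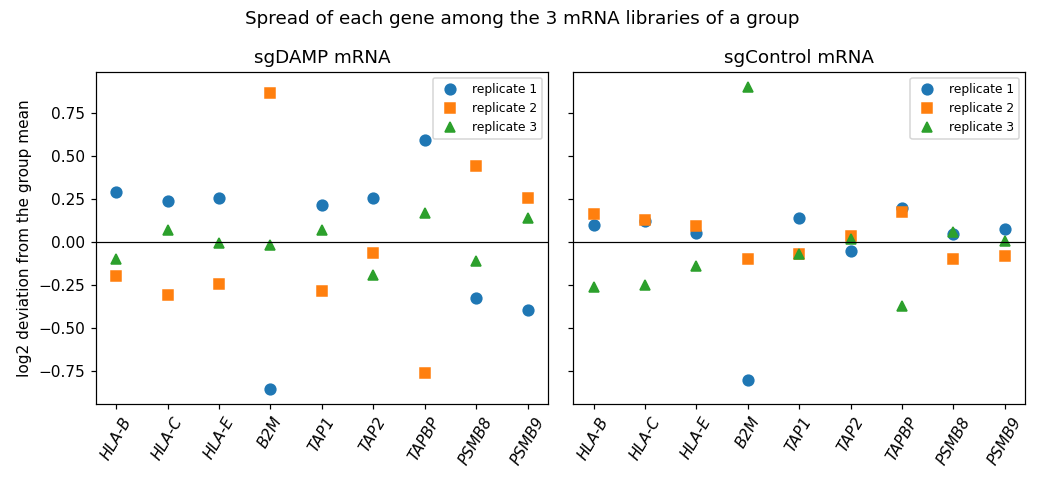
Deviation of each gene's log2 coding CPM from its group mean in the 3 sgDAMP (left) and 3 sgControl (right) mRNA libraries. In sgDAMP replicate 2 and in sgControl replicate 3, B2M was highest while HLA-B, HLA-C, HLA-E, TAP1 and TAPBP were lowest, TAP1 in sgControl in a near tie with replicate 2.

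Among replicates, HLA-B, HLA-C, HLA-E, TAP1 and TAPBP, 5 of the 9, were all lowest in sgDAMP replicate 2 and in sgControl replicate 3, the libraries in which B2M was highest. For TAP1 in sgControl this was a near tie, with 123.9 coding CPM in replicate 2 and 123.8 in replicate 3. These 5 were picked out after their values were seen. After group means were removed, the correlations between any of the 9 members over the 9 mRNA libraries ran from -0.88 (B2M with TAPBP) to 0.98 (HLA-C with HLA-E). These are descriptions of 9 libraries that share scaling and depth within a library. The same libraries lay at the high end of their groups on the first principal component of all genes, which held 50.3% of the variance, with scores of 0.63 for sgDAMP replicate 2 and 0.30 for sgControl replicate 3, where the other 4 ran from -0.68 to 0.06. The part of this axis in the members' differences was not tested.

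Other genes of the pathway did not pass the test in sgDAMP mRNA either. Of 14 loading and trimming genes 12 were tested, 0 were called and 9 had a negative log2 change, with a median of -0.22. Among them HLA-F, a further heavy chain, had a log2 change of -0.78 (SE 0.30, adjusted p = 0.862), PSMB10, the remaining immunoproteasome subunit, -0.55 (SE 0.31), and the chaperone calreticulin (CALR) -0.40 (SE 0.26). Of 17 regulators of class I transcription 15 were tested and 0 called, with a median of -0.08. IRF1, an interferon-induced transcription factor that acts on class I promoters, had the smallest p among those named here, with a log2 change of -0.87 (SE 0.29, unadjusted p = 0.00966, adjusted p = 0.862 by edgeR).

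In footprints, sgDAMP and sgControl count as 1 sample each, so the condition has no replicates and ratios carry exact Clopper-Pearson 95% intervals. These cover counting error alone, and without molecular identifiers a read is not an independent molecule. A change was taken as at least 1.5-fold. TAP1 was the only one of the 8 members with at least 30 footprints that passed this size, in a background of 16.1% of 14289 genes higher and 13% lower, so the members' share lies near the background. The members' median log2 ratio was 0.02, beside 0.01 over all genes. These ratios use TMM factors of the sums; in coding CPM every log2 ratio is larger by 0.27, and then 3896 genes pass higher and 1030 lower, against 2300 and 1860.

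**Figure D3:**
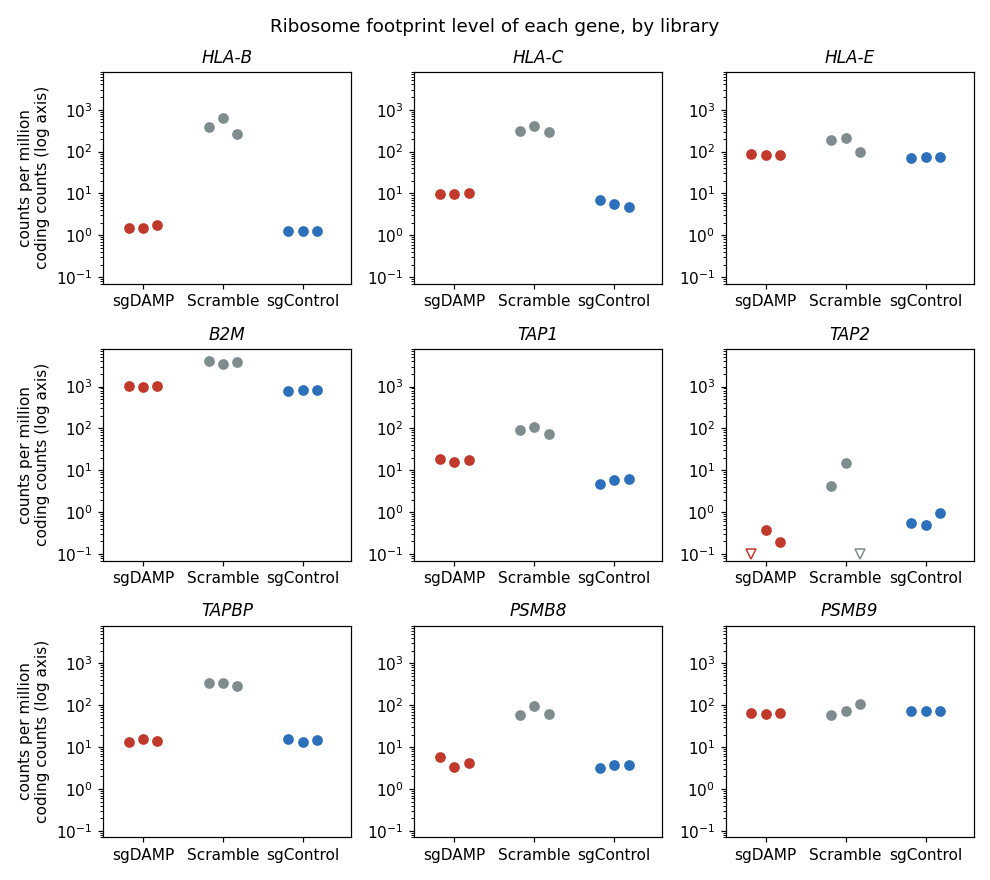
Footprint level of each gene, in coding CPM on a log axis, for the 3 libraries of sgDAMP, Scramble and sgControl cells; open triangles mark libraries with a count of 0. HLA-B lay at 1.48 to 1.72 in sgDAMP, 265 to 624 in Scramble and 1.29 to 1.30 in sgControl libraries, while PSMB9 lay between 58.7 and 108 in all of them.

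TAP1 had 88, 83 and 90 footprints in sgDAMP libraries, against 25, 37 and 39 in sgControl libraries. In coding CPM these were 18.6, 15.8 and 17.2 in sgDAMP, against 4.60, 5.97 and 6.35 in sgControl libraries. All 3 sgDAMP values lay above the sgControl values, as they did for 5 of the 9 members and for 51.3% of genes, and between libraries counted as 1 sample this speaks of counting error alone. The scaled ratio of the sums was 2.51 (95% counting interval 1.98 to 3.18), above 96.0% of all genes. TAP1 mRNA had a negative log2 change that did not pass its test.

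HLA-C had 47, 51 and 54 footprints in sgDAMP libraries, against 37, 34 and 29 in sgControl libraries, a ratio of 1.47 (1.14 to 1.92). It lay just under the 1.5-fold limit, and passed it under total-count, upper-quartile and coding-sum scaling. HLA-B had 7, 8 and 9 footprints in sgDAMP libraries, against 7, 8 and 8 in sgControl libraries. At this depth its ratio of 1.01 (0.547 to 1.88) could hide a fall or a rise within that interval. HLA-E, far better covered, had 1272 footprints in sgDAMP and 1286 in sgControl, a ratio of 0.959 (0.887 to 1.04), which is 1.16 in coding CPM. B2M had 15301 footprints in sgDAMP and 14682 in sgControl, a ratio of 1.01 (0.988 to 1.03), or 1.22 in coding CPM, and its libraries lay within 996 to 1018 coding CPM in sgDAMP and 798 to 842 coding CPM in sgControl.

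The B2M footprints did not show the spread of the mRNA libraries with the same numbers, which the labels do not tie to the same cultures. TAP2 had 0, 2 and 1 footprints in sgDAMP libraries and 3, 3 and 6 in sgControl libraries, under the minimum of 30, and its ratio of 0.242 (0.0439 to 0.898) is not read. TAPBP had 219 footprints in sgDAMP and 258 in sgControl, a ratio of 0.823 (0.684 to 0.989).

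PSMB8 had 67 footprints in sgDAMP and 63 in sgControl, a ratio of 1.03 (0.720 to 1.48). PSMB9 had 317, 333 and 342 footprints in sgDAMP libraries, against 397, 453 and 441 in sgControl libraries, a ratio of 0.745 (0.685 to 0.810), or 0.897 in coding CPM. In coding CPM, PSMB9 ran from 63.4 to 66.9 in sgDAMP and from 71.8 to 73.1 in sgControl libraries, without overlap, as did 13.2% of genes in that direction. The constitutive subunits had ratios of 1.29 (PSMB5), 1.02 (PSMB6) and 1.07 (PSMB7). PSMB9 per PSMB6 was 0.0594 (0.0557 to 0.0634) in sgDAMP and 0.0813 (0.0767 to 0.0860) in sgControl footprints, with intervals for counting error alone. In mRNA the mean of this ratio was also lower in sgDAMP, with an exact permutation p of 0.1, the smallest possible. PSMB8 per PSMB5 was 0.0511 (0.0394 to 0.0653) in sgDAMP and 0.0641 (0.0489 to 0.0827) in sgControl footprints, with overlapping intervals.

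Among the other genes of the pathway, 0 of 13 loading and trimming genes passed 1.5-fold in footprints. Of 15 regulators with enough footprints 3 were higher and 2 lower by that size, shares near the 16.1% and 13% of all genes. RFX5, a subunit of the factor that binds class I promoters, had 115 footprints in sgDAMP and 59 in sgControl (ratio 1.89, 1.37 to 2.63). IRF1 had 61 footprints in sgDAMP and 28 in sgControl (2.11, 1.33 to 3.43), and IFNGR1, a chain of the interferon gamma receptor, had 235 in sgDAMP and 141 in sgControl (1.62, 1.31 to 2.01). RFXAP, another subunit of the same factor as RFX5, had 37 in sgDAMP and 59 in sgControl (0.608, 0.392 to 0.932). EZH2, the histone methyltransferase that can silence class I genes in tumours, had 59 footprints in sgDAMP and 1668 in sgControl (ratio 0.0343, 0.0260 to 0.0445), while its mRNA log2 change was 0.38 (SE 0.37).

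**Figure D4:**
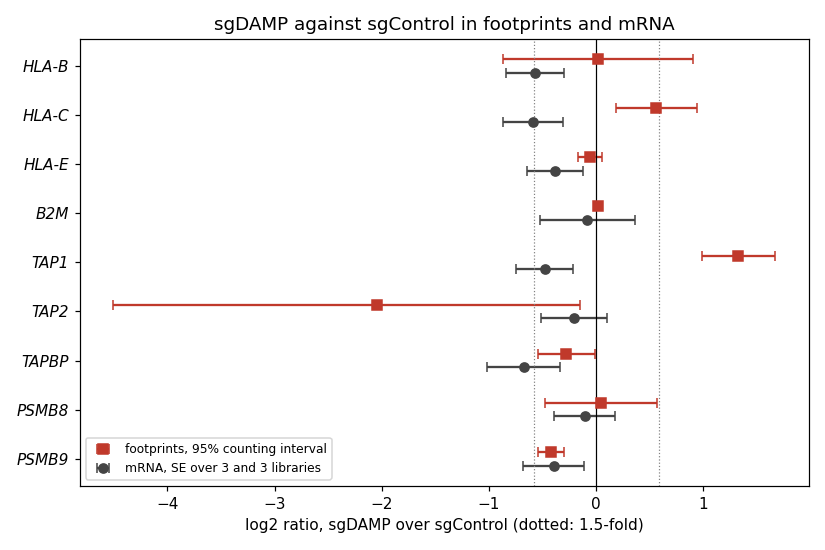
log2 ratio of sgDAMP over sgControl for each gene in footprints (squares, 95% counting interval) and in mRNA (circles, SE over 3 and 3 libraries); dotted lines mark 1.5-fold. TAP1 lies at 1.32 in footprints and -0.48 in mRNA, and TAP2 rests on 3 and 12 footprints.

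Footprints relative to mRNA ask whether ribosome occupancy moved apart from the amount of mRNA. In one edgeR fit over the 6 mRNA libraries and the 2 footprint sums, which takes its spread from the mRNA libraries and assumes that a single footprint sample varies like them, 0 of 9 members passed, in a background of 0.031% of 19357 genes higher and 0.227% lower. The members' median was 0.34, beside 0.00 over all genes. TAP1 had the largest value, 1.82 (SE 0.61, unadjusted p = 0.0084, adjusted p = 0.645), and HLA-C stood at 1.16 (SE 0.62, unadjusted p = 0.0799). TAP2 had a value of the other sign, -1.77 (SE 0.93, unadjusted p = 0.0750), from 3 footprints in sgDAMP and 12 in sgControl. With the footprint libraries kept apart as if they were replicates, TAP1 was called at 1.83 (adjusted p = 0.00421) and was the only member called. That fit takes its spread from the mRNA and footprint libraries together. The footprint part of this spread is mostly sampling noise and not a spread between samples. In the fit over the 2 footprint sums, EZH2 of the regulators stood at -5.23 (SE 0.77), which rests on 1 footprint sample per condition.

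In Scramble cells, footprints were compared with mRNA of the same cells, 3 libraries each. Relative to TMM scaling over both assays, 4 of 9 members were higher in footprints and 0 lower, in a background of 17.1% of 14432 genes higher and 27.4% lower. B2M was higher by 2.24 (SE 0.26, adjusted p = 7.98e-08), PSMB9 by 1.67 (SE 0.33, adjusted p = 1.60e-04), TAPBP by 1.64 (SE 0.18, adjusted p = 2.85e-08) and HLA-B by 1.52 (SE 0.23, adjusted p = 4.38e-06 by edgeR), all on the log2 scale. These directions hold only relative to other genes: the median gene stood at -0.68 with this scaling and at -3.53 with total-count scaling, under which all 4 turned negative, to -0.55 (B2M), -1.20 (PSMB9), -1.17 (TAPBP) and -1.22 (HLA-B), while 481 genes were called higher and 13049 lower, against 2464 and 3954. HLA-C (0.16), HLA-E (-0.08), TAP1 (-0.05), TAP2 (-0.39) and PSMB8 (0.35) did not pass the test.

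The values behind this were as follows. B2M had 4030, 3466 and 3833 coding CPM in Scramble footprints, against 922, 931 and 918 coding CPM in Scramble mRNA. TAPBP had 344, 342 and 289 coding CPM in footprints, against 128, 118 and 131 coding CPM in mRNA. HLA-B had 381, 624 and 265 coding CPM in footprints, from 91, 126 and 22 counts, against 176, 171 and 199 coding CPM in mRNA. For these genes and PSMB9 every footprint library lay above every mRNA library, against 15.3% of all genes in that direction and 50.2% in the other. PSMB9 rested on 14, 15 and 9 footprints, or 58.7, 74.3 and 108 coding CPM, against 30.6, 28.4 and 22.5 coding CPM in mRNA. Among the constitutive subunits, PSMB5 (1.81) and PSMB7 (1.14) were also called higher and PSMB6 (0.27) was not. Of 12 tested loading and trimming genes 6 were called higher and 2 lower, among them CALR higher at 2.25 and the disulfide isomerase PDIA3 lower at -0.77.

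**Figure D5:**
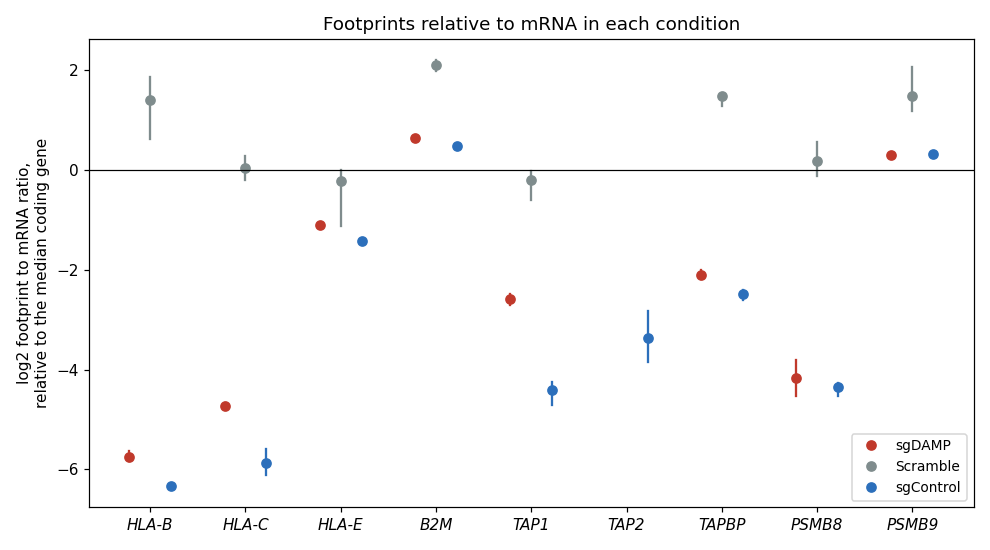
log2 ratio of footprints to mRNA (both in coding CPM), relative to the median coding gene of the condition, for sgDAMP, Scramble and sgControl cells; points are pooled libraries, lines the range of footprint libraries, and TAP2 is shown only where at least 10 footprints were summed. HLA-B lies at -5.75 in sgDAMP, 1.41 in Scramble and -6.33 in sgControl, and B2M and PSMB9 lie above 0 in all 3.

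The ratio of footprints to mRNA, set against the median coding gene of the same condition, differed most between the sets of libraries for HLA-B and HLA-C. HLA-B stood at -5.75 on the log2 scale in sgDAMP, 1.41 in Scramble and -6.33 in sgControl, above 0.660%, 84.8% and 0.444% of coding genes in those conditions. HLA-C stood at -4.72 in sgDAMP, 0.03 in Scramble and -5.86 in sgControl, while HLA-E stood at -1.11, -0.21 and -1.43 in the same order. The sgDAMP and sgControl cells thus lay close to each other and far from Scramble cells for HLA-B and HLA-C. These differences were not tested, since sgDAMP and sgControl footprints are 1 sample each.

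TAP1 stood at -2.59 in sgDAMP, -0.21 in Scramble and -4.40 in sgControl, TAPBP at -2.09, 1.49 and -2.47, and PSMB8 at -4.17, 0.19 and -4.34. B2M (0.64, 2.11 and 0.49) and PSMB9 (0.31, 1.49 and 0.31) were the members above the median in all 3 conditions. In footprint coding CPM, Scramble cells exceeded sgControl cells by 353-fold for HLA-B, 60.7-fold for HLA-C, 23.0-fold for TAPBP, 20.5-fold for PSMB8 and 16.8-fold for TAP1. The fold was 4.58 for B2M, 2.48 for HLA-E and 0.999 for PSMB9. Over 9463 genes the median log2 value was 0.44. HLA-B lay above 99.81% of them, HLA-C above 98.96%, and TAPBP, PSMB8 and TAP1 above 92.14% to 94.89%. B2M lay above 69.75%, HLA-E above 58.81% and PSMB9 above 45.32%. Of the constitutive subunits, PSMB5 was higher by 9.18-fold and PSMB7 by 6.83-fold, and the fold for PSMB6 was 0.205. Heavy chain genes are close paralogs, and reads with several positions took 45.2% to 48.2% of reads in Scramble footprints, against 23.6% to 23.7% in sgControl footprints. HLA-G, a further paralog, had 37 to 46 footprints per sgDAMP library, 1 to 3 per Scramble library and 49 to 62 per sgControl library, beside 0 to 4 mRNA counts in any library. Heavy chain values in footprints are therefore uncertain, and the part of read placement in these differences was not tested.

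Finally, Scramble mRNA was compared with sgControl mRNA, both controls of the study. Any difference in treatment and in library making between the 2 sets cannot be told apart. With TMM scaling 5 of 9 members were lower in Scramble mRNA and 0 higher, in a background of 46.1% of 16360 genes higher and 33.4% lower. PSMB9 was lower, at -2.12 (SE 0.18, adjusted p = 5.83e-06), as were PSMB8 at -1.11 (SE 0.16, adjusted p = 1.28e-04), TAP1 at -1.06 (SE 0.16, adjusted p = 2.17e-04), HLA-C at -0.91 (SE 0.19, adjusted p = 0.00161) and HLA-E at -0.84 (SE 0.17, adjusted p = 0.00112 by edgeR). Of these only PSMB9 was also called with total-count scaling, which moved the median gene to 1.25 from 0.42 with TMM, turned HLA-E to 0.00 and called 9708 genes higher and 3156 lower, against 7544 and 5471 with TMM. TAPBP (-0.39), B2M (-0.33), TAP2 (-0.24) and HLA-B (-0.22) did not pass, and all 4 were positive with total-count scaling, where HLA-B (0.63), TAP2 (0.59) and TAPBP (0.46) were called higher.

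In coding CPM, 3 members (PSMB9, PSMB8 and TAP1) were lower and 3 (HLA-B, TAP2 and TAPBP) higher in Scramble mRNA without overlap, in a background of 19.6% lower and 62.7% higher. PSMB9 had 30.6, 28.4 and 22.5 coding CPM in Scramble libraries, against 66.8, 59.8 and 63.6 coding CPM in sgControl libraries. The constitutive subunits were lower too, by TMM at -2.58 (PSMB5), -2.04 (PSMB6) and -1.79 (PSMB7). PSMB9 per PSMB6 was 0.153 ± 0.0313 in Scramble and 0.160 ± 0.00460 in sgControl libraries (SD, n = 3 each, two-sided exact permutation p = 0.8). PSMB8 per PSMB5 was 0.414 ± 0.0334 in Scramble and 0.149 ± 0.00622 in sgControl libraries (two-sided exact permutation p = 0.1, the smallest possible). PSMB8-AS1, which overlaps PSMB8 and TAP1, had 405, 380 and 384 counts in Scramble mRNA, against 6, 9 and 6 in sgControl mRNA and no footprint in any library, and its part in the PSMB8 and TAP1 values of the Scramble set was not tested.

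Over the 9 mRNA libraries, the coding genes outside all lists whose pattern was most like that of the heavy chains with B2M were RSU1, CCN5 and UPP1, at Pearson's r of 0.96, 0.96 and 0.95. For TAP1, TAP2 and TAPBP they included SLC8B1 and ESYT1 (0.99 each), and for PSMB8 and PSMB9 they were DGUOK, MRPL52 and SRA1 (0.99 each), out of 7996 genes. These libraries fall into the sets above, which weigh on every such correlation.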

How the data were processed

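The deposited values are raw counts of reads per gene, per the file headers and values whole numbers for 61487 gene IDs and 5 lines of unassigned reads, which were left out. Per the submitters' processing notes, the tools were HTSeq 0.11.2, HISAT2 2.1.0, Trimmomatic 0.30, SAMtools 1.10 and edgeR, and the build GRCh38; for the annotation release, the strand setting and multiply placed reads, the settings are not given in the sources used. RefSeq tables named 61369 IDs, 19156 of them protein-coding. The members and all gene lists were chosen with earlier results of these data known.

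Counts were filtered with filterByExpr (minimum count 10), scaled by TMM and tested with the quasi-likelihood test of edgeR 4.0.16 (R 4.3.3) over all genes, two-sided, with Benjamini-Hochberg adjustment and a threshold of 0.05. Scripts were tested on simulated data. Footprints of sgDAMP and sgControl were summed per condition. Named genes are all members, up to 4 called members of each list, the constitutive subunits, overlapping genes and the 3 most similar genes per role, of which not all are reported here; further genes named in the text (HLA-F, HLA-G, PSMB10, CALR, IRF1, PDIA3, DSP-AS1) were chosen after their values were seen or as checks. Levels per coding length were planned but not made, as no coding lengths were used here, so levels are compared only within a gene or as reads. Alternatives were other scalings and filters, DESeq2 1.42.0, limma 3.58.1 (voom), a replicate block, joint fits over more libraries, coding genes alone and leaving out each library.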

Additional observations from a re-analysis of the deposited data

Results flagged for a closer look

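The footprint to mRNA ratio of HLA-B, relative to the median coding gene, was higher in Scramble than in sgControl cells by 7.74 on the log2 scale (1.41 in Scramble and -6.33 in sgControl). Every Scramble library lay above the median gene and every sgControl library below it, and this opposite direction drew attention to it. The same held for TAPBP, with a difference of 3.97 (1.49 in Scramble and -2.47 in sgControl). This reversal was not particular to the members. PSMB5 ran from 0.79 to 1.99 in Scramble and from -3.18 to -3.08 in sgControl libraries. PSMB7 ran from 0.85 to 1.09 in Scramble and from -2.72 to -2.56 in sgControl libraries, while PSMB6 was above the median gene in every sgControl library. The share of all genes that reverse in this way was not counted. The differences of HLA-B and TAPBP were not tested, since sgControl footprints count as 1 sample.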

How the results depend on the processing

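The number of members called in mRNA of sgDAMP against sgControl was 0 under all alternatives run. Depth limits HLA-B (24 footprints in sgDAMP and 23 in sgControl) and TAP2 (3 and 12) in those cells, and TAP2 (4), PSMB8 (38), PSMB9 (38) and TAP1 (50) in Scramble footprints. Changing the scaling turned small values: in that comparison B2M to 0.0040 and PSMB8 to 0.023 (total-count), and to 0.016 and 0.00043 (upper-quartile). Leaving out a library gave B2M -0.61 to 0.38 and PSMB8 -0.36 to 0.066. For footprints of sgDAMP against sgControl, 2 members passed 1.5-fold with total-count, upper-quartile or coding-sum scaling (TAP1 and HLA-C), 1 to 2 when a library was left out, 3 were called by edgeR with the libraries kept apart (TAP1, HLA-C and PSMB9), 3 with the replicate block and 0 by edgeR over 8 samples. For footprints relative to mRNA, 1 member (TAP1) was called with libraries kept apart and 1 with the block as well (1.83, adjusted p = 0.0122), against 0; PSMB9 was 0.0084 with DESeq2 size factors, 0.00084 with the block and 0.069 with total-count scaling, and without 1 library PSMB9 ran from -0.24 to 0.12, PSMB8 from -0.038 to 0.40 and B2M from -0.37 to 0.61. In Scramble cells, footprints against mRNA gave 9 members called, all lower, with TMM within each assay (HLA-B -1.43, HLA-C -2.79, B2M -0.72, TAPBP -1.32, PSMB8 -2.60, PSMB9 -1.29) and 7 with total-count scaling (HLA-B -1.22, HLA-C -2.62, B2M -0.55, TAPBP -1.17, PSMB8 -2.49, PSMB9 -1.20), against 4. HLA-C was -0.82 with at least 10 counts in every library, and HLA-E was 0.033 and TAP1 0.062 with upper-quartile scaling. Without 1 library HLA-C ran from -0.13 to 0.44, PSMB8 from -0.062 to 0.56, HLA-E from -0.35 to 0.15 and TAP1 from -0.30 to 0.15. For Scramble against sgControl mRNA, total-count scaling gave HLA-B 0.63, HLA-E 0.0012, B2M 0.47, TAP2 0.59 and TAPBP 0.46, and B2M ran from -0.64 to 0.11 without 1 library. The cause of these reversals was not tested beyond the zero point that each scaling sets.

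Over all genes, mRNA calls of sgDAMP against sgControl were 21 with the DESeq2 Wald test, 14 without a filter, 1 in a fit over all 9 mRNA libraries and 0 to 6 without 1 library (6 without sgControl replicate 3), against 0. Calls of footprints relative to mRNA were 451 with libraries kept apart and 215 with the block, against 50. Calls in Scramble cells were 13861 with TMM within each assay, 13530 with total-count scaling and 1143 with at least 10 counts in every library, against 6418. The replicate numbers did not pair the samples: deviations of same-numbered sgDAMP and sgControl mRNA libraries correlated at 0.37, -0.20 and -0.41, and 1 of 3 sgDAMP libraries correlated best with its own number. The replicate block left 0 members called in sgDAMP mRNA, 4 in Scramble cells and changed no other call beside those given.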
